A study of Mus musculus with 6 samples.

Results

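Death receptors are cell-surface proteins of the tumour necrosis factor (TNF) receptor superfamily that can start cell death when a ligand binds. The 10 genes described here were chosen by name as death receptors, related receptors and their adaptors: Fas, Tnfrsf10b, Tnfrsf1a, Tnfrsf1b, Tnfrsf9, Tnfrsf12a, Eda2r, Fadd, Tradd and Cflar. Of these, 9 are among the 12656 genes measured, and Eda2r was not analysed here. RNA was sequenced from 4T1, a mouse mammary carcinoma line that stands for triple-negative breast cancer (TNBC), with no genetic change named for either group. The control group is 3 libraries of cells in DMSO, the solvent. The treated group is 3 libraries of cells exposed for 48 h to LP-184, a prodrug that damages DNA. The sources used here do not give the dose, the duration of the DMSO exposure or whether each replicate was its own culture; a p-value here measures only how these libraries scatter, and that scatter may be technical.

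Death receptors proper carry a death domain inside the cell, a fold through which they bind adaptors with a domain of the same kind. Fas and Tnfrsf10b recruit Fadd, which gathers caspase-8 and its catalytically inactive relative Cflar (c-FLIP) into a death-inducing complex, while Tnfrsf1a first recruits Tradd and builds a complex that signals to NF-kB. The receptors Tnfrsf1b, Tnfrsf9 and Tnfrsf12a have no death domain and signal through TRAF proteins. The label therefore covers death receptors in the strict sense for Fas, Tnfrsf10b and Tnfrsf1a only. In tumour cells, Fas and Tnfrsf10b are known targets of p53, and Tnfrsf10b is also a known target of the stress factor CHOP.

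Values are CPM (read counts scaled to library size) or their log2, and a fold change is the LP-184 mean minus the DMSO mean on the log2 scale. Reads over the measured genes numbered 18864368 to 22471753 per library. Libraries of the same group correlated across genes at r of 0.994 to 0.995 and libraries of different groups at 0.914 to 0.917. The mammary epithelial markers were well expressed, with 9 of 10 measured and a sum of 5511 to 5532 CPM in DMSO and 4251 to 4292 CPM in LP-184. Of these 9, 6 were higher and 3 lower at a limma adjusted p under 0.05, with the largest rise in Krt14 (1.46 on the log2 scale) and the largest fall in Krt7 (-1.45).

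The 9 genes divided into a large rise of Tnfrsf9, a large fall of Tnfrsf12a, and small or undetected changes of the death-domain receptors, Tnfrsf1b, the adaptors and Cflar. Tnfrsf9, a costimulatory receptor best known from T cells, rose 5.00-fold with LP-184, and Tnfrsf12a, the receptor of the cytokine TWEAK, fell 1.92-fold from a high level. By limma with Benjamini-Hochberg adjustment over the 11931 genes tested, Tnfrsf9 and Tnfrsf10b were higher and Tnfrsf12a, Tnfrsf1a, Fadd and Cflar were lower at an adjusted p under 0.05, while Fas, Tnfrsf1b and Tradd did not pass. So 6 of 9 were called, where 78.3% of all genes tested were, 38.3% higher and 40.0% lower. The 6 include Tnfrsf9, which reached 1 CPM in LP-184 libraries only. A change of 1.5-fold or more was seen in 2 of the 9, against 41.6% of all genes tested, and for 7 of the 9 the libraries of the 2 groups were fully apart, against 79.1%. The median log2 fold change was -0.18 over the 9 genes and -0.01 over all genes tested. In the authors' deposited table, all 9 genes lay on the same side of an adjusted p of 0.05 and had the same sign as here.

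**Figure D1:**
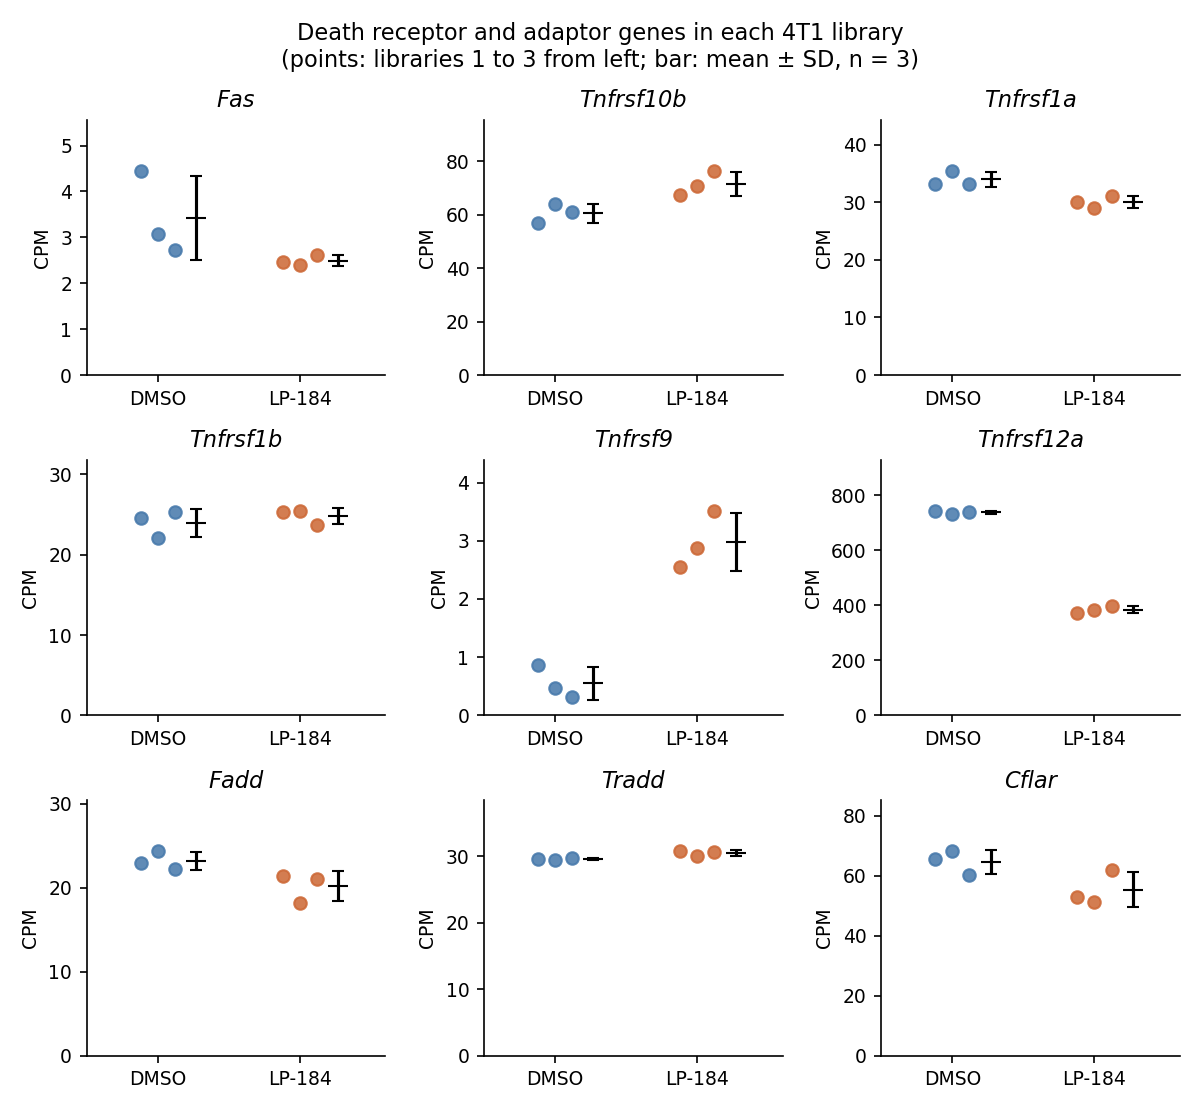
CPM (vertical axis, from 0) of each of the 9 measured genes in the 3 DMSO libraries (blue) and the 3 LP-184 libraries (orange), with mean ± SD beside the points. Tnfrsf9 lies between 2.54 and 3.51 CPM in LP-184, above all DMSO libraries, and Tnfrsf12a between 372 and 396 CPM, below all DMSO libraries.

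Among the receptors with a death domain, Tnfrsf10b (DR5, a receptor for the ligand TRAIL; chromosome 14, 69767472 to 69784411 in GRCm38, forward strand) had 56.9, 63.9 and 61.2 CPM in DMSO replicates 1 to 3 and 67.4, 70.7 and 76.6 CPM in LP-184 replicates 1 to 3. Every LP-184 library lay above every DMSO library, by a small margin at the nearest pair. This amounts to a 1.18-fold rise, or 0.24 ± 0.05 on the log2 scale (SE; limma adjusted p = 6.5e-05). The sign turned after removal of the trend by gene length, to -0.05 (adjusted p = 0.44).

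Tnfrsf1a, the main receptor for TNF (chromosome 6, 125349362 to 125362484, forward strand), had 33.2, 35.5 and 33.2 CPM in DMSO and 30.0, 28.9 and 31.1 CPM in LP-184. The groups did not overlap, and the change was small: -0.18 ± 0.06 on the log2 scale (SE; limma adjusted p = 0.012), or 0.884 of the DMSO level. The call was lost with median centring (-0.09, adjusted p = 0.20) and quantile normalization (-0.09, adjusted p = 0.19), and also without DMSO replicate 2 (-0.15, adjusted p = 0.069) or LP-184 replicate 2 (-0.15, adjusted p = 0.051).

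Fas, the receptor for Fas ligand (chromosome 19, 34290666 to 34327772, forward strand), was the least abundant of the death-domain receptors in this gene set. It had 4.45, 3.08 and 2.73 CPM in DMSO, from 83, 66 and 51 reads, and 2.45, 2.40 and 2.62 CPM in LP-184, from 56, 50 and 50 reads. DMSO replicate 1 was the highest, and the groups did not overlap. Its change of -0.41 ± 0.22 on the log2 scale (SE; limma adjusted p = 0.081) did not pass, and its 95% interval ran from -0.85 to 0.03. Single libraries decided this result: without DMSO replicate 1 the value was -0.21 (adjusted p = 0.43), and without DMSO replicate 3 it was -0.56 (adjusted p = 0.034). The authors' deposited table gives Fas a log2 fold change of -0.45 with an adjusted p of 0.053.

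The adaptors and the inhibitor of this pathway moved little. Fadd, the adaptor that joins Fas and Tnfrsf10b to caspase-8 (chromosome 7, 144577318 to 144582463, reverse strand), had 23.0, 24.3 and 22.2 CPM in DMSO and 21.4, 18.2 and 21.0 CPM in LP-184. Its groups did not overlap, and LP-184 replicate 2 was the lowest library. Fadd changed by -0.20 ± 0.08 on the log2 scale (SE; limma adjusted p = 0.026). This call was lost with median centring (-0.11, adjusted p = 0.21), quantile normalization (-0.10, adjusted p = 0.26), without LP-184 replicate 2 (-0.13, adjusted p = 0.18) and without DMSO replicate 2 (-0.16, adjusted p = 0.11). The opposite-strand gene Faddos overlaps 6.12% of the exon sequence of Fadd in the annotation, and without a stated strand setting reads there cannot be assigned to either gene.

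Tradd, the adaptor of Tnfrsf1a (chromosome 8, 105258286 to 105264609, reverse strand), had 29.6, 29.5 and 29.8 CPM in DMSO and 30.8, 30.0 and 30.7 CPM in LP-184. The libraries of each group lay close together and just apart from the other group. A change of 0.04 ± 0.06 on the log2 scale (SE; limma adjusted p = 0.56) did not pass, and its 95% interval, -0.09 to 0.17, holds changes from 0.940-fold to 1.13-fold.

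Cflar, which competes with caspase-8 for Fadd and limits its activation (chromosome 1, 58711508 to 58758884, forward strand), had 65.7, 68.1 and 60.3 CPM in DMSO and 52.8, 51.3 and 61.9 CPM in LP-184. LP-184 replicate 3 lay above DMSO replicate 3, so the groups overlapped. Cflar changed by -0.23 ± 0.06 on the log2 scale (SE; limma adjusted p = 0.00049), to 0.853 of the DMSO level. The call was lost without the mean-variance trend (adjusted p = 0.06) and after removal of the length trend (-0.09, adjusted p = 0.19). The values count all transcripts of the gene, so the long and short c-FLIP proteins cannot be told apart.

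The receptors that signal through TRAF proteins held the largest rise and the largest fall of the 9 genes. Tnfrsf9 (4-1BB, also CD137; chromosome 4, 150914562 to 150946102, forward strand) had 0.858, 0.466 and 0.321 CPM in DMSO, from 16, 10 and 6 reads, and 2.54, 2.87 and 3.51 CPM in LP-184, from 58, 60 and 67 reads. The groups were far apart, although the gene remained near the bottom of the measured range in LP-184. The rise was 2.32 ± 0.32 on the log2 scale (SE; limma adjusted p = 4.1e-08), and 3.95% of all genes tested had a larger change in either direction. Tnfrsf9 passed the filter on low values (1 CPM in at least 3 libraries) only through the LP-184 libraries, so it could enter the test only by being higher there; without a filter the value was the same (adjusted p = 5.3e-08). The fold is damped by the prior added to low values. From the reads, LP-184 had 5.41 times the DMSO level (exact binomial 95% interval 3.18 to 9.92, for counting error only, from read totals divided by 2 because low totals were mostly even).

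Because Tnfrsf9 is best known from leukocytes, the leukocyte markers are given beside it. Of 12 markers, 5 were measured, with a sum of 14.6 to 15.9 CPM in DMSO and 61.6 to 73.6 CPM in LP-184. The macrophage receptor gene Csf1r (log2 fold change 4.08) and Cd68 (1.61) rose, the myeloid genes Lyz2 and S100a8 (-1.28) fell, and Lyz2 had 0 reads in every LP-184 library after 96 reads in DMSO. Lyz2 and S100a8 passed the filter only through the DMSO libraries, so they could enter the test only by being higher there. The B cell gene Cd79a had 2 reads in DMSO and 58 in LP-184 and was under the filter. The pan-leukocyte gene Ptprc and the T cell genes Cd3e and Cd3d were not analysed here. Of 8 fibroblast markers 1 was measured, at 6.37 to 7.62 CPM in DMSO and 8.12 to 10.3 CPM in LP-184, and of 5 endothelial markers 0 were. In bulk RNA, a change in the number of cells of a type and a change in RNA per cell cannot be told apart, and the part of other cells in the Tnfrsf9 result was not tested.

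RefSeq lists 2 starts for Tnfrsf9 in GRCm38.p6. The 250 bases before each are shown because Tnfrsf9 had the largest change of the 9 genes, followed by those before the start of Tnfrsf12a, which had the largest fall. Capitals mark matches on either strand to AP-1 (TGANTCA), NF-kB (GGGNNNNNCC) or CRE (TGACGTCA) letters. The AP-1 and CRE letters read the same on both strands.
Tnfrsf9, upstream start, chr4:150919905-150920154, plus strand: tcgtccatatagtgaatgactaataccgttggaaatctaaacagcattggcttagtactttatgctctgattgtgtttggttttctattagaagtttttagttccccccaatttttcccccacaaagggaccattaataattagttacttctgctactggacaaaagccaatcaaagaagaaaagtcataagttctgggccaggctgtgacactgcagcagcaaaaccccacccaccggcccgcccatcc
Tnfrsf9, downstream start, chr4:150927749-150927998, plus strand: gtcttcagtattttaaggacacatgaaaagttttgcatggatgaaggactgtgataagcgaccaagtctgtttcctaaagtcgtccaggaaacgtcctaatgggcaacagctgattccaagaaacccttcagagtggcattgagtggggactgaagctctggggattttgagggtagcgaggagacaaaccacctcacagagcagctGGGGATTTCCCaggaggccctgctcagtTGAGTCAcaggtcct
Tnfrsf12a, chr17:23677450-23677699, minus strand: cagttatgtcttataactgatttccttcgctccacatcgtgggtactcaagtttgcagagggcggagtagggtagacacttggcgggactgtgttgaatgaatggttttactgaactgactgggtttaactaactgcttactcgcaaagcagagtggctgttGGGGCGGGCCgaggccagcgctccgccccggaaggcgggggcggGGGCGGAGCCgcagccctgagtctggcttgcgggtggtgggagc

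The window before the downstream start of Tnfrsf9 holds an AP-1 match 15 bases before the start and 2 overlapping NF-kB matches that begin 43 and 42 bases before it. The window before the upstream start holds no match to the 3 motifs, and that of Tnfrsf12a holds 2 NF-kB matches in GC-rich sequence. Over 32851 promoter windows of this length, 6.75% hold the AP-1 letters, 45.8% the loose NF-kB letters and 1.55% the CRE letters, so the NF-kB letters alone separate few promoters. Windows were found for 7 of the 9 genes. That of Fas also holds 1 AP-1 match and 2 NF-kB matches, and those of Tnfrsf1a and Tnfrsf1b hold NF-kB matches. Which start these cells use was not measured, and a match is not a bound site.

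Tnfrsf12a (Fn14; chromosome 17, 23675445 to 23677468, reverse strand) was the most abundant of the 9 genes, with 742, 731 and 739 CPM in DMSO and 372, 384 and 396 CPM in LP-184. Libraries of a group lay close together, and the groups were far apart. The log2 value changed by -0.94 ± 0.02 (SE; limma adjusted p = 2.4e-28), from 43342 reads in DMSO to 24063 reads in LP-184. It remained past the threshold in all 18 alternatives, between -1.21 and -0.85, and 22.7% of all genes tested had a larger change.

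Tnfrsf1b, the second TNF receptor (chromosome 4, 145213463 to 145246870, reverse strand), had 24.6, 22.0 and 25.3 CPM in DMSO and 25.3, 25.4 and 23.7 CPM in LP-184. The groups overlapped. A difference of 0.05 ± 0.08 on the log2 scale (SE; limma adjusted p = 0.53) did not pass, with a 95% interval from -0.10 to 0.21.

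**Figure D2:**
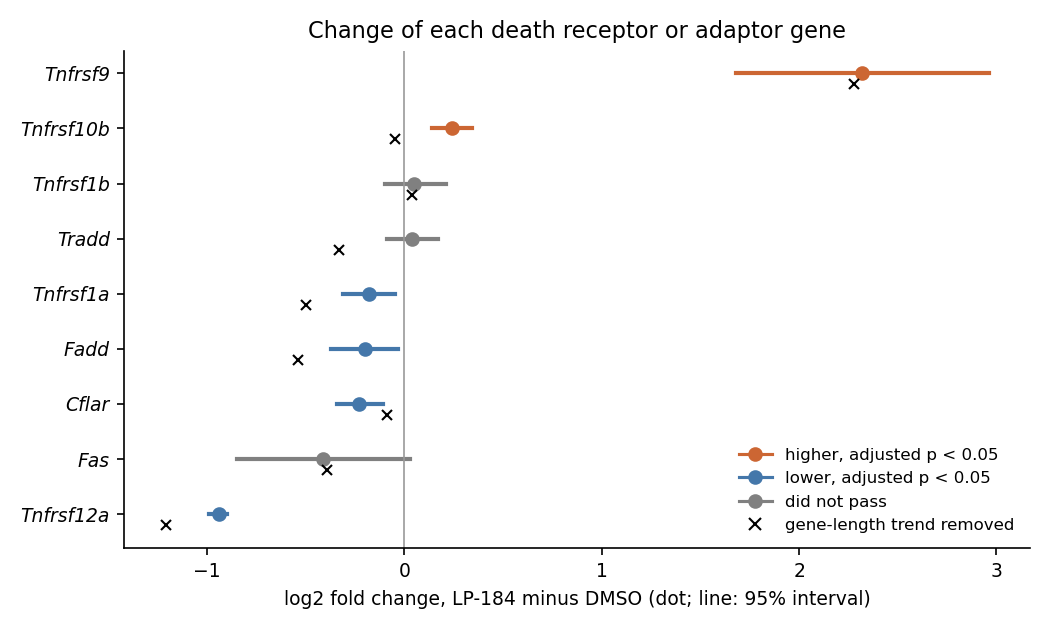
Log2 fold change (horizontal axis, LP-184 minus DMSO) of each gene with its 95% interval from limma, coloured by whether it passed an adjusted p under 0.05, and crosses for the value after removal of the gene-length trend. Tnfrsf9 (2.32) and Tnfrsf12a (-0.94) stand away from 0, and the interval of Fas, from -0.85 to 0.03, is the widest among the other 7.

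Per kilobase of annotated exon, the order of levels in DMSO was Tnfrsf12a (382 ± 2.96 CPM per kb, SD, n = 3), Tradd (15.9 ± 0.0707), Tnfrsf1a (13.1 ± 0.507), Tnfrsf10b (11.1 ± 0.651), Tnfrsf1b (6.27 ± 0.443), Fadd (5.94 ± 0.276), Cflar (5.11 ± 0.316), Fas (1.66 ± 0.442) and Tnfrsf9 (0.202 ± 0.102). The ranges of Tnfrsf1b and Fadd overlapped, so these neighbours did not differ beyond their spread, while the ranges of all other neighbours were apart. In LP-184, Tnfrsf10b (13.1 ± 0.852) stood above Tnfrsf1a (11.6 ± 0.423), with no overlap of their ranges. Tnfrsf9 (1.09 ± 0.181) overlapped Fas (1.21 ± 0.0566), and Fadd (5.18 ± 0.445) overlapped Cflar (4.37 ± 0.456). These levels divide by the union of all annotated exons, so a gene with long rarely used exons, such as Cflar with 12.7 kb, is placed too low.

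Fold changes in these libraries varied with gene span, the distance from first to last exon: the median log2 fold change was 0.32 for genes around 7.65 kb and -2.20 for genes around 240.5 kb. The 9 genes span 2.02 kb (Tnfrsf12a) to 47.4 kb (Cflar), and the trend at their spans ran from -0.14 (Cflar) to 0.38 (Tradd). For genes of the length of Tnfrsf12a the trend was 0.27, so its value with the trend removed was -1.21. For Tnfrsf1a, Fadd and Tradd the trend was 0.32, 0.34 and 0.38, and their values with it removed were -0.50 (adjusted p = 7.9e-07), -0.54 (adjusted p = 9.5e-06) and -0.33 (adjusted p = 0.00013). Tradd, whose fitted change did not pass, was thus below the trend at its span of 6.32 kb. Its fitted change of 0.04 still lay between the lower and upper quartiles of genes around 5.67 kb (-0.07 to 0.75). The same held for genes around 7.65 kb (-0.05 to 0.75). The adjusted p-values given here measure scatter between libraries, not the spread among genes of similar span. With the trend removed, Tnfrsf9 was at 2.28, Fas at -0.39 and Tnfrsf1b at 0.04.

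**Figure D3:**
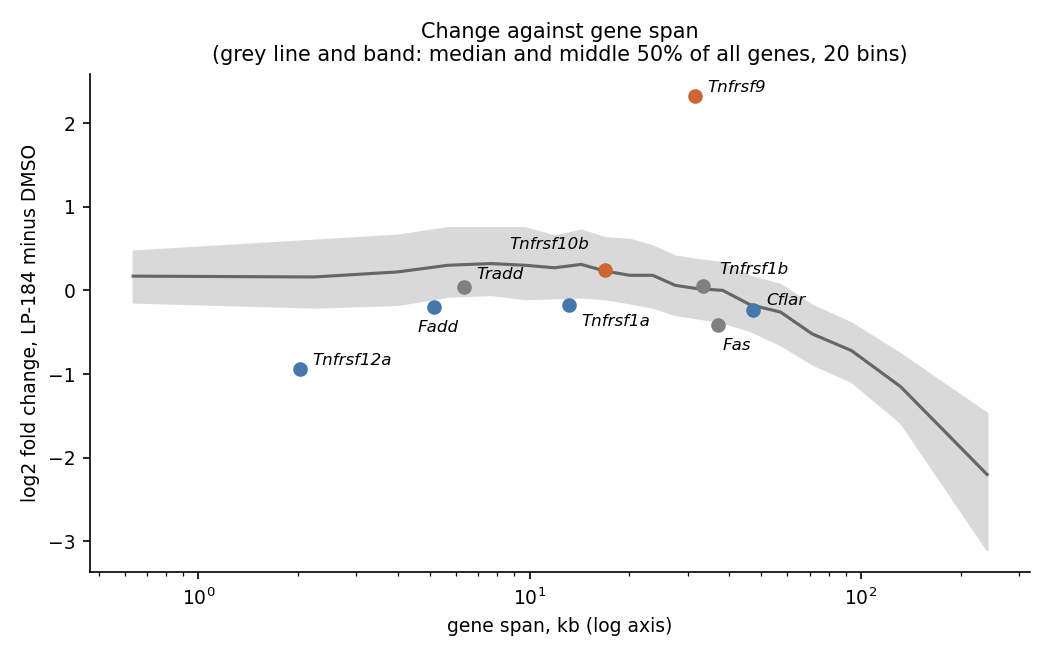
Log2 fold change (vertical axis) against gene span in kb (log axis) for the 9 genes, with the median and middle 50% of all genes in 20 bins of span in grey. Tnfrsf9 lies above the band and Tnfrsf12a, Fadd, Tnfrsf1a and, narrowly, Fas below it, while Cflar and Tnfrsf10b lie close to the median line.

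Of 18 ligands of the TNF superfamily, 4 were measured, of which 3 rose and 1 fell, where 78.3% of all genes tested were called and 38.3% were higher. For 3 of the 4 the filter on low values was passed only through the group where the gene is high, so their calls are no support for the list. Tnf, the ligand of Tnfrsf1a and Tnfrsf1b, had 2, 0 and 2 reads in DMSO and 76, 48 and 60 reads in LP-184. That is 43.1 times the DMSO level (exact binomial 95% interval 11.6 to 361, for counting error only; log2 fold change 4.21 ± 0.41, SE). Tnfsf9, the ligand of Tnfrsf9, had a mean of 12.4 CPM in DMSO and 14.6 CPM in LP-184 (0.24 ± 0.10, limma adjusted p = 0.03), and was at -0.03 after removal of the length trend.

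Tnfsf15, a TNF family cytokine, rose by 2.80 ± 0.30 on the log2 scale, from 25 to 219 reads over 3 libraries each. Eda, whose A2 form is the ligand of Eda2r, had 50, 76 and 54 reads in DMSO and 4, 0 and 0 reads in LP-184, a log2 fold change of -4.49 ± 0.43. It spans 425 kb, and removal of the length trend left -1.88. Tnf and Tnfsf15 passed the filter only through LP-184, and Eda only through DMSO. The ligands of Fas, Tnfrsf10b and Tnfrsf12a (Fasl, Tnfsf10 and Tnfsf12) were not analysed here.

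Of 21 other receptors of the superfamily, 9 were measured, of which 2 rose, 2 fell and 5 did not pass, so 4 of 9 were called against 78.3% of all genes tested. Relt, a receptor expressed in blood cells, rose from 7.26 ± 0.194 to 23.2 ± 1.83 CPM (SD, n = 3 each), which is 1.66 ± 0.10 (SE) on the log2 scale. Tnfrsf26, a member of a cluster of related mouse receptor genes, rose by 1.35 ± 0.18. Its neighbours Tnfrsf22 and Tnfrsf23, decoy receptors for TRAIL, were at -0.06 and 0.14 and did not pass, and reads may be split among these related genes. Ngfr, the neurotrophin receptor, which carries a death domain, fell by 1.15 ± 0.32, from 132 to 58 reads, with 66 of the DMSO reads in replicate 3.

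Downstream of Tnfrsf1a, all 25 genes of the first signalling complex (complex I) were measured. Of these, 6 rose, 6 fell and 13 did not pass, with a median of -0.03, so 12 of 25 were called against 78.3% of all genes tested. The kinase Ripk1 (-0.08) and the ubiquitin ligases Birc2 (0.07) and Birc3 (-0.16) did not pass. Traf2, the adaptor between Tradd and the ligases, rose by 0.27 ± 0.07 and Tnfaip3 (A20), which edits ubiquitin chains to end the signal, fell by 0.22 ± 0.04 on the log2 scale. The largest changes were those of Traf5 (-1.56 ± 0.24), Spata2 (0.96 ± 0.07), which brings the deubiquitinase CYLD to the complex, and Traf3 (-0.72 ± 0.07). Traf5 and Traf3 span 95.4 and 100.8 kb, and after removal of the length trend they were at -0.77 and 0.13.

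Of 21 genes of the death-inducing complexes and their effectors, 18 were measured, of which 9 fell, 4 rose and 5 did not pass. These 13 called of 18 are near the share over all genes tested (78.3% called, 38.3% higher and 40.0% lower). Casp8, the initiator caspase recruited by Fadd, fell from 90.7 ± 5.05 to 59.5 ± 1.20 CPM (SD, n = 3 each), a change of -0.61 ± 0.04 (SE) on the log2 scale (limma adjusted p = 1.7e-14). The adaptor Cradd, with a death domain, fell by 3.27 ± 0.29, from 310 to 31 reads, and spans 149 kb; removal of the length trend left -1.93. It passed the filter only through DMSO. Dedd2, with a death effector domain, rose by 1.37 ± 0.09.

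3 lists hold genes of pathways known to control these receptors, and their counts stand beside 38.3% higher and 40.0% lower over all genes tested. Of 22 p53 targets, 15 rose and 4 fell (median 0.48), led by Cdkn1a (3.15 on the log2 scale), Sesn2 (1.87) and the kinase gene Plk2 (2.83-fold). In the same list, Mdm2 (0.05) and Bbc3 (-0.10) did not pass, and Ccng1 (-0.79) and Phlda3 (-0.57) fell. Whether p53 is intact or active in these cells was not tested, so the counts are no measure of p53 activity. Sesn2 is also in the ATF4-CHOP list, so the lists are not separate. Of 13 ATF4-CHOP genes, 9 rose and 4 fell (median 0.60), led by Ddit3, which encodes CHOP (3.64), Atf3 (3.52) and Ppp1r15a (2.73). Of 14 NF-kB feedback genes, 7 rose and 3 fell (median 0.37), led by the NF-kB subunit gene Rela (1.24), the inhibitor gene Nfkbib (1.23) and the subunit gene Relb (1.00). In this NF-kB list, Nfkb1 (-0.78), Nfkbie (-0.75) and Tnfaip3 (-0.22) fell. Birc3 (-0.16), Traf1 (0.13), Tnip1 (0.10) and Bcl3 (-0.11) did not pass. Beside these values, Fas was at -0.41 and did not pass, and Tnfrsf10b was at 0.24. The counts take no account of gene span. With the length trend removed, Cdkn1a was at 2.81, Atf3 at 3.67 and Rela at 0.90, while Mdm2 was at -0.14 and Bbc3 at -0.44. Mdm2 and Bbc3 were then called lower (limma adjusted p = 0.0044 and 0.024). Of the p53 targets that rose, Aen (0.09), Pidd1 (0.16) and Trp53inp1 (0.35) did not pass after this step. Ei24 went from 0.06 to -0.20 and Sesn1 from 0.50 to 1.32. Polk (0.38) was then called higher, and 19 of the 22 p53 targets were called in either direction. The NF-kB gene Nfkb1 went from -0.78 to 0.13, and the ATF4-CHOP gene Slc7a11 from -0.95 to 1.77. Fas was then at -0.39 and Tnfrsf10b at -0.05.

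**Figure D4:**
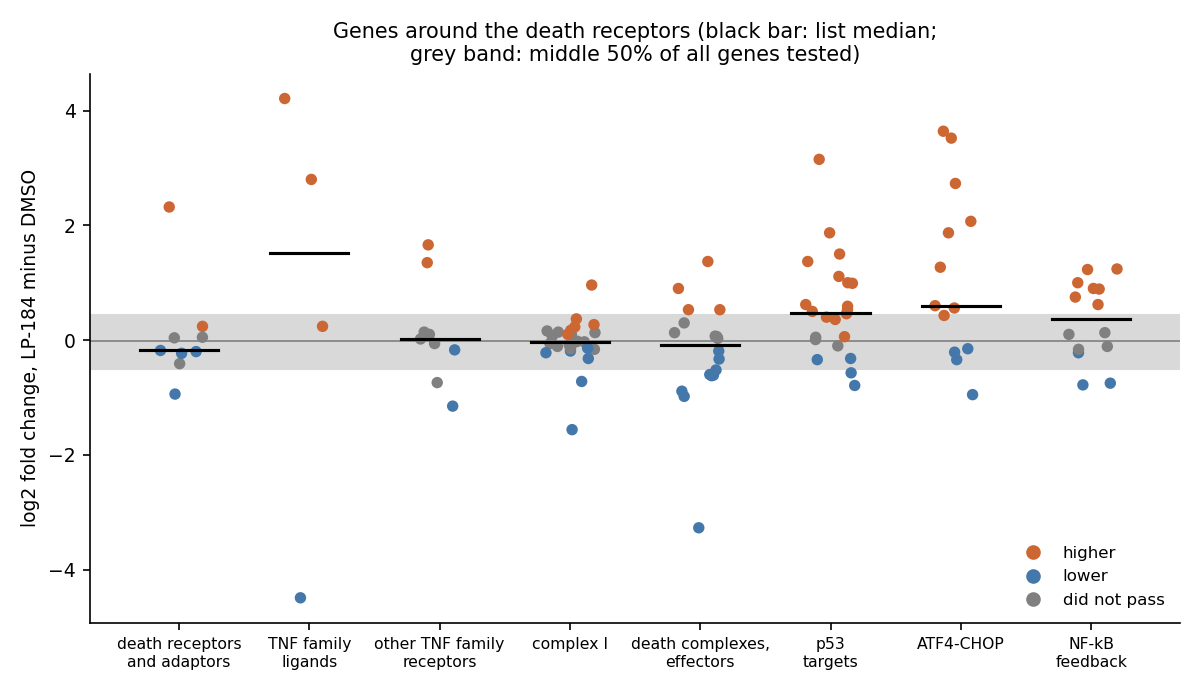
Log2 fold change (vertical axis) of every tested gene in the 9-gene set and in 7 lists around it, coloured by call, with the list median as a black bar and the middle 50% of all 11931 genes tested, -0.51 to 0.44, as a grey band. Apart from Tnfrsf9 and Tnfrsf12a the death receptor and adaptor genes lie within that band, as do most complex I genes.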

How the data were processed

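The members and gene lists were chosen with earlier results of these data known. The authors deposited log2 CPM for 12656 genes in 6 libraries of polyadenylated RNA, with columns named Ctrl read as DMSO. Tools named in the submitters' processing notes are STAR 2.7, featureCounts, fastp, Subread 2.0, edgeR, Cell Ranger 7.0 and Seurat 5.1.0, with the builds mm10 and hg38. Strand, pairing and filter settings are not given there. The authors also deposited a table of log2 fold changes, p-values and adjusted p-values, used only for comparison.

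The value of a gene at 0 reads (-3.34) was subtracted on the linear scale to give CPM. 100% of values were then whole reads (tolerance 0.001). Of totals from 1 to 20 reads, 69.5% to 72.3% per library were even, so counting intervals used totals divided by 2.

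Genes at 1 CPM or more in at least 3 libraries were fitted with limma 3.58.1 in R 4.3.3 on the deposited log2 values. The fit had 2 groups and a mean-variance trend and was two-sided, and genes were called at a Benjamini-Hochberg adjusted p under 0.05. The procedure was also run on simulated counts with few changed genes and no length trend. That setting differs from these data, so it does not test the calls given here. The text names all 10 members, in each list the 3 called genes with the largest change, and the members' ligands, Casp8, Ripk1, Traf2, Birc2, Birc3 and Tnfaip3, apart from 1 gene that is not reported here. Tnfrsf22, Tnfrsf23, S100a8, Cd79a, Mdm2, Bbc3, Ccng1, Phlda3, Nfkb1, Slc7a11 and the unmeasured markers were added after their values were seen. So were Aen, Pidd1, Trp53inp1, Ei24, Sesn1, Polk, Nfkbie, Traf1, Tnip1 and Bcl3. Spans and exons are from GENCODE M21 (GRCm38), matched for 95.9% of genes, and promoters from RefSeq (GRCm38.p6). Fold change was smoothed on log10 gene length by loess (parameter 0.3) to give the length trend. Alternatives were 2 scalings, pseudocounts of 1 and 0.1, other filters, variance models and thresholds, leaving out each library, the replicate block, voom on the recovered reads and removal of the length trend.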

Additional observations from a re-analysis of the deposited data

How the results depend on the processing

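Over 18 alternatives, Tnfrsf12a kept its direction and call in each, as did Tnfrsf9 in the 17 that include it. The stricter filter (log2 CPM of 2 or more) removed Fas and Tnfrsf9, which left 1 gene of the set called higher and 1 ligand called. With the length trend removed, 1 was called higher, and Tnfrsf10b (-0.05) and Tradd (-0.33) changed sign. 2 were called lower, in place of 4, with median centring (Tnfrsf1a -0.09, Fadd -0.11), with quantile normalization (Tnfrsf1a -0.09, Fadd -0.10), without the mean-variance trend (Fadd -0.20, Cflar -0.23) and at an adjusted p under 0.01 (Tnfrsf1a -0.18, Fadd -0.20). Cflar was at -0.09 with the length trend removed. For the stricter filter and the adjusted p threshold, construction sets the count. Median centring moves every gene by the same amount, the difference of the group medians (-0.09), and trend removal subtracts the fitted trend at each span. For the other alternatives the cause was not tested.

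Leaving out 1 library at a time, 2 to 5 genes of the set were called lower and 2 higher. The values ranged from -0.56 to -0.21 for Fas, from -0.20 to -0.15 for Tnfrsf1a, from -0.24 to -0.13 for Fadd and from -0.01 to 0.09 for Tnfrsf1b, which was negative only without DMSO replicate 2. The set's calls fell to 2 lower without DMSO replicate 2 or LP-184 replicate 2. With the replicate block, 4550 genes were higher and 4741 lower over all genes tested, and the set had 2 higher and 4 lower as before (Fas -0.41, adjusted p = 0.089). Deviations of libraries with the same number correlated at -0.02 to -0.01, and no library correlated best with its own number. No shared variation by number was thus seen, but this cannot show whether libraries of the same number were prepared together. Depth limits Fas and Tnfrsf9, whose libraries held 83 reads or fewer.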

Other observations

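2 genes already counted in the list of death-inducing complexes and their effectors were picked with their values known. Mlkl, which forms the pore of necroptosis, fell from 130.7 ± 2.86 to 70.7 ± 2.48 CPM (SD, n = 3 each), a change of -0.89 ± 0.04 (SE) on the log2 scale. Daxx, a chaperone first described as a Fas-binding protein, rose by 0.90 ± 0.06 on that scale. With the length trend removed, Mlkl was at -0.99 and Daxx at 0.53.

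Ratios within a library do not depend on library scaling, and 3 were computed after the values were seen. The log2 ratio of Tnfrsf10b to Tnfrsf1a was 0.77, 0.85 and 0.88 in DMSO and 1.17, 1.29 and 1.30 in LP-184. That of Cflar to Casp8 was -0.55, -0.41 and -0.51 in DMSO and -0.19, -0.23 and 0.09 in LP-184. That of Fadd to Casp8 was -2.06, -1.89 and -1.94 in DMSO and -1.49, -1.72 and -1.46 in LP-184. In each the groups did not overlap, with differences of 0.42, 0.38 and 0.41, higher in 3 of 3 LP-184 libraries. The ratios to Casp8 are not separate results: Casp8 (-0.61) fell more than Cflar (-0.23) and Fadd (-0.20), and it is shared by both. The ratios take no account of gene span. With the length trend removed, Casp8 was at -0.39, Cflar at -0.09 and Fadd at -0.54, so Fadd then fell more than Casp8. The exact two-sided permutation p was 0.10 for each ratio (Benjamini-Hochberg adjusted 0.10 over 3), the smallest that 3 libraries against 3 allow.

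Even read totals prevailed among low values: in DMSO replicate 1, 52 genes had 2 reads and 8 had 1 read, and in LP-184 replicate 2 the numbers were 44 and 1. The labels do not say whether both reads of a pair were counted.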
